A study of Rattus norvegicus with 14 samples.

Results

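Vomeronasal receptors were followed as a family of genes that is not expected in skin, in arrays made from rat skin. The members were all array probes whose accession, without its version, matched a rat RefSeq symbol beginning Vom1r or Vom2r. This gave 139 of 30367 probes on the array, which stood for 113 genes. The type 1 receptors had 49 probes for 49 genes and the type 2 receptors had 90 probes for 64 genes. All 113 genes are protein coding in RefSeq, which lists 378 vomeronasal receptor genes in all, 194 of them pseudogenes, so the members are 29.9% of that list. The family was chosen from its measured detection flags and levels, which were known to lie mostly near background. How many members lie above background and how far they lie from the negative control spots are therefore given as descriptions, without a test.

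Vomeronasal receptors are G protein coupled receptors of sensory neurons in the vomeronasal organ, a chemosensory organ in the nasal septum that detects pheromones and other social cues. Neurons with type 1 receptors signal through the G protein subunit Gnai2, neurons with type 2 receptors through Gnao1, and both open the cation channel Trpc2. The receptors are not known as genes of skin, so their probes give a view of what an array reads where little or no matching RNA is expected.

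The skin came from male CD hairless rats (strain label CD Haireless) in 2 groups, 6 rats exposed to 94 GHz millimetre waves and 8 unexposed sham rats. Exposure ran for 5.5 months, with sessions of 3 h on 3 days of each week, and the rats' age was not stated in the labels. Each animal had 1 one-colour array, and the rats shared cages in pairs that could not be identified, so p-values treat animals as independent. The 75th percentile of array signal, which measures how bright an array is, was 1500 ± 314 scanner units (SD, n = 6) for exposed rats and 1510 ± 342 (SD, n = 8) for sham rats, and single arrays ran from 804.5 to 1967. Skin was identified by its defining genes: the keratinocyte keratins Krt5 and Krt14 lay at 5.15 ± 0.31 and 7.06 ± 0.16 (SD, n = 14) on the log2 scale relative to that percentile, and both Col1a1 probes and the Col3a1 probe were at 5.60, 7.35 and 5.95. Krt10 was not matched to a probe. Muscle and hair follicle signal differed much between biopsies: the summed linear level of 6 muscle genes ran from 0.540 to 71.2 times the 75th percentile in exposed and from 0.391 to 29.4 in sham arrays, and that of the hair follicle genes from 22.8 to 181 and from 14.6 to 125. Their part in the receptor signals was not tested.

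The sequence upstream of 3 receptor genes is shown because these genes carry the results below: Vom1r55 was the brightest type 1 receptor, Vom1r30 was the receptor whose groups did not overlap after scaling, and Vom2r63 had the widest spread between animals among probes above background on at least 6 arrays. Each window is the RefSeq sequence on build GRCr8 from 250 bases before the gene's start to 50 after it, written 5′ to 3′ on the gene's strand, and capitals mark the letters TATAAA. The windows lie at chr1:82795423-82795722 (plus strand) for Vom1r55, chr1:73880214-73880513 (plus strand) for Vom1r30 and chr12:22738528-22738827 (plus strand) for Vom2r63.
Vom1r55: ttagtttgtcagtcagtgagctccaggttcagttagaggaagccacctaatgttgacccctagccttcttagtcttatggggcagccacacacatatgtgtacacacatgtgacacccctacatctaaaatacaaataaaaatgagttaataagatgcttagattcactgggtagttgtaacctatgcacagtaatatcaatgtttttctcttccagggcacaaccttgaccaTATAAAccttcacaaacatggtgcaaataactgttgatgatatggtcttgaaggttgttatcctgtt
Vom1r30: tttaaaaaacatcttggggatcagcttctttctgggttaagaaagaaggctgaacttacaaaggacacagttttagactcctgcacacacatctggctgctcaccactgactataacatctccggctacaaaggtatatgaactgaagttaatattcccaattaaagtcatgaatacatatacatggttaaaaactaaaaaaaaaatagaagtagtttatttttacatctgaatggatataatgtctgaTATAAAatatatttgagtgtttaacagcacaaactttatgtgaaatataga
Vom2r63: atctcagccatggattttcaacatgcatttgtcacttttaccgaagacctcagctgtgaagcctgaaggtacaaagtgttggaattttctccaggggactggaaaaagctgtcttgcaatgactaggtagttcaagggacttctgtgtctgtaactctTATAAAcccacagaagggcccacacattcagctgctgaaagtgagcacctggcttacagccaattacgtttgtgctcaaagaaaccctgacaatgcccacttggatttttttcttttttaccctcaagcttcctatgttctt
Their GC content was 39.7%, 31.7% and 43.7%. A window was found for 108 of the 113 member genes, and not for Vom2r34 or Vom2r24 among others.

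The letters of 3 short words were counted in these windows on both strands: TATAAA, the core of a TATA box; TAATTA, a core bound by many homeodomain factors; and the 10-letter palindromic consensus of the olfactory factor Ebf. Words were counted separately, so matches may share letters. TATAAA was found in 41 of 108 member windows (38.0%) against 14.2% of the 33469 windows of all genes in the table. It was in 8 of the 18 windows of genes with a probe above background on at least 6 arrays (44.4%) and in 33 of the 90 others (36.7%). TAATTA was found in 24 of 108 (22.2%) against 5.36% of all windows, in 3 of those 18 and in 21 of the 90. The Ebf consensus was in 0 of 108 against 0.834% of all windows. These shares were not tested, and no allowance was made for where in a window a match lies or for base composition. In the Vom1r30 window above, the marked letters lie across the gene's start. In the Vom1r55 and Vom2r63 windows the gene's start falls on the letters atg, those of a start codon. Where transcription of these genes starts was not tested, so the matches are not placed against such a start. Receptor genes lie in clusters of related copies, so these windows are not independent of each other, and a match is only a run of letters.

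Most receptor probes were not well above background on any of the 14 skin arrays. A probe was counted as well above background on an array when at least 50% of its unflagged spots carried the scanner software's flag of that name. By this count 97 of 139 probes (69.8%) were above background on none of the 14 arrays, 22 on 1 to 5 arrays and 20 (14.4%) on at least 6. The 20 stood for 20 genes and each was above background on 8 arrays or more, and 7 of them (5.04%) were so on all 14. No probe was above background on any array for 74 of the 113 genes. None of the 215 receptor spots was flagged as an outlier or saturated.

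Both receptor types were alike in their share of probes with signal, though more type 1 probes were above background in every animal. At least 6 arrays were reached by 7 of 49 type 1 probes (14.3%) and 13 of 90 type 2 probes (14.4%), and all 14 arrays by 5 and 2 probes. Counted by gene, 7 of 49 type 1 and 13 of 64 type 2 genes had a probe that reached 6 arrays. Some type 2 genes had several probes, so the likeness holds for probes and not for genes. Other chemosensory families give a yardstick, again as a description. Among olfactory receptor probes, 89 of 1187 (7.50%) reached 6 arrays, 66.1% were never above background and 4.55% were above it on all 14. Trace amine receptors had 1 of 17 and taste receptors 2 of 33 (6.06%) at 6 arrays or more. Of the 3 formyl peptide receptor probes, a family some of whose members serve the vomeronasal organ, Fpr1 alone was above background, at -2.15, and it is a well-known receptor of white blood cells. Over all 30367 probes, 69.2% reached 6 arrays and 20.1% were never above background.

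**Figure D1:**
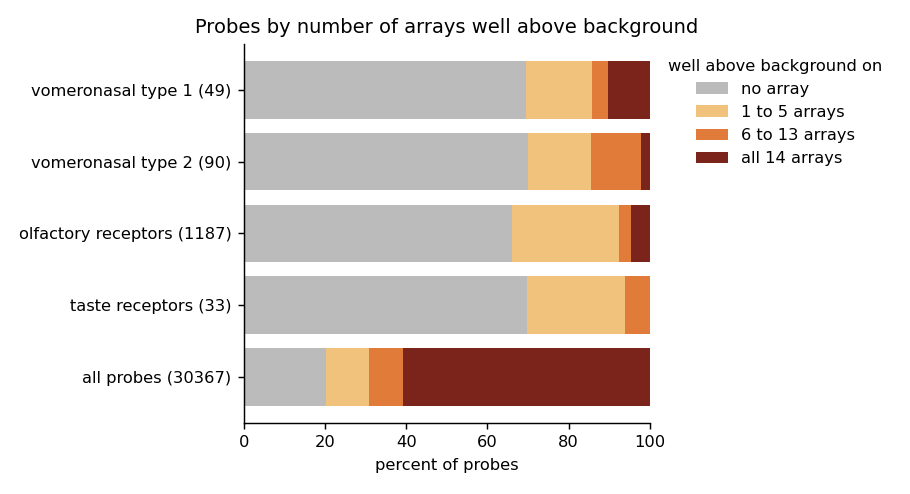
Percent of probes by the number of arrays on which they were well above background, for vomeronasal receptors of both types, other chemosensory families and all probes, with the number of probes in brackets. The receptor bars are mostly probes never above background (69.8% of the 139 vomeronasal probes), whereas 60.9% of all probes were above it on all 14 arrays.

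The number of receptor probes above background ran from 14 to 24 between animals and overlapped between the groups. Exposed arrays had 19.0 ± 2.90 such probes (SD, n = 6), from 14 to 21, and sham arrays had 20.3 ± 3.81 (SD, n = 8), from 14 to 24. As a share of the 139 probes this is 10.1% to 17.3%, while 64.6% to 73.6% of all probes were above background on the same arrays. Among the negative control spots, which carry 1 control sequence, 0 of 4172 kept readings were well above background, after 140 readings marked as outliers were left out, 17 of which were.

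In processed signal, receptor probes that were never above background lay at the level of the negative control spots of their own array. This is partly built in: the probes were chosen for lacking the flag, and dim readings mostly hold an error estimate, as described below. The median negative control level was -8.23 ± 0.30 (SD, n = 14), from -8.69 to -7.66, and the median over the 97 never-detected probes was -8.23 ± 0.30. Their difference within an array was 0.0032 ± 0.031 (SD, n = 14), from -0.030 to 0.082. Over all 139 probes the median lay 0.089 ± 0.025 (SD, n = 14) above the negative controls, and it lay above them on each of the 14 arrays, by 0.059 to 0.148. In scanner units the median negative control signal was 3.99 to 6.08, and the lowest signal of a probe well above background was 16.5 to 25.6.

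At these low levels the processed signal was mostly the scanner software's error estimate. Of 3010 readings of receptor spots, 2056 (68.3%) were not positive and significant, and all of them carried a processed signal within 1% of the software's own error estimate for that spot. The background-subtracted signal of the same readings ran from -20.4 to 5.98 units with a median of -2.52, and 71.1% of them were negative. Among all non-control spots 14.8% of readings were of this kind, and among negative control spots 99.6%. Those negative control readings had a background-subtracted median of -6.75 units, and 94.8% were negative. By median, the receptor readings thus lay higher before the floor. Values at this floor have no order, so the lowest receptors, Vom2r62, Vom2r70, Vom2r13, Vom1r1 and Vom1r21, with means from -8.46 to -8.37, are named without ranking them.

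Before the floor is applied, the background-subtracted signal of the dim receptors did keep some order between animals. Over the 91 pairs of arrays the median Spearman correlation across probes was 0.497 (0.302 to 0.700) for the 97 never-detected probes, 0.501 (-0.396 to 0.793) for the 22 seen on 1 to 5 arrays and 0.731 (0.423 to 0.959) for the 20 seen on at least 6. Negative control spots, all of 1 sequence at different places on the slide, gave 0.051 (-0.147 to 0.190) over 215 spots. These are descriptions: the arrays share the probe sequences and the layout, and the part of each was not tested.

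Among the 20 probes with signal, Vom2r34 stood alone. Its probe lay at 1.86 ± 0.24 (SD, n = 14), above the 75th percentile of every array, with 1.42, 1.73 and 2.33 as the lowest, median and highest exposed value and 1.74, 1.86 and 2.26 in sham. In scanner units it read 3858 to 6568. No array was far from the others, and the groups overlapped. The level of 1 probe cannot be set against that of another, since it depends on the probe's sequence as well as on the RNA, so the order given here is one of signal and not of RNA.

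Of the type 1 receptors, 5 gave signal in every animal. Vom1r55 lay at -1.30 ± 0.31, Vom1r23 at -2.15 ± 0.24, Vom1r61 at -3.46 ± 0.24, Vom1r37 at -4.19 ± 0.35 and Vom1r30 at -4.83 ± 0.23 (SD, n = 14 each), all above background on all 14 arrays. Neighbours in this order lie further apart than their SDs. The other type 1 probes with signal, Vom1r100 at -5.97 ± 0.44 and Vom1r73 at -6.24 ± 0.67, were above background on 8 arrays each and overlapped with each other.

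The remaining type 2 receptors with signal formed a band with means from -6.21 to -4.63, where the median negative control level was -8.23. Vom2r24, the brightest of them by mean, lay above Vom1r30. Vom2r47 at -5.60 ± 0.27 was above background on all 14 arrays. Vom2r24, Vom2r35, Vom2r56, Vom2r48, Vom2r12 and Vom2r55 were so on 13, with means from -5.92 to -4.63. Vom2r76, Vom2r63 and Vom2r72 were above background on 11 arrays, Vom2r18 on 10 and Vom2r46 on 9, with means from -6.21 to -5.10. Means in this band differ by less than the spread between animals for most neighbours.

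Among these, 3 type 2 probes varied between animals far more than the rest, with SDs of 1.00 or more where the other 17 had 0.23 to 0.67. Vom2r24 ran from -6.88 in sham 4 to -2.70 in sham 6, around a mean of -4.63 ± 1.00. Vom2r76 ran from -7.29 in sham 7 to -2.62 in exposed 2, around -5.10 ± 1.28. Vom2r63 ran from -7.68 in exposed 3 to -1.72 in exposed 4, around -5.24 ± 1.68. Each spread covers the step from background to a clear signal in animals of the same group. The spots of a probe did not always agree: in exposed 2 the Vom2r76 spots read 68.1 and 809 units, and in exposed 6 the Vom2r63 spots read 438 and 76.0, while in exposed 4 they read 452 and 482.

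**Figure D2:**
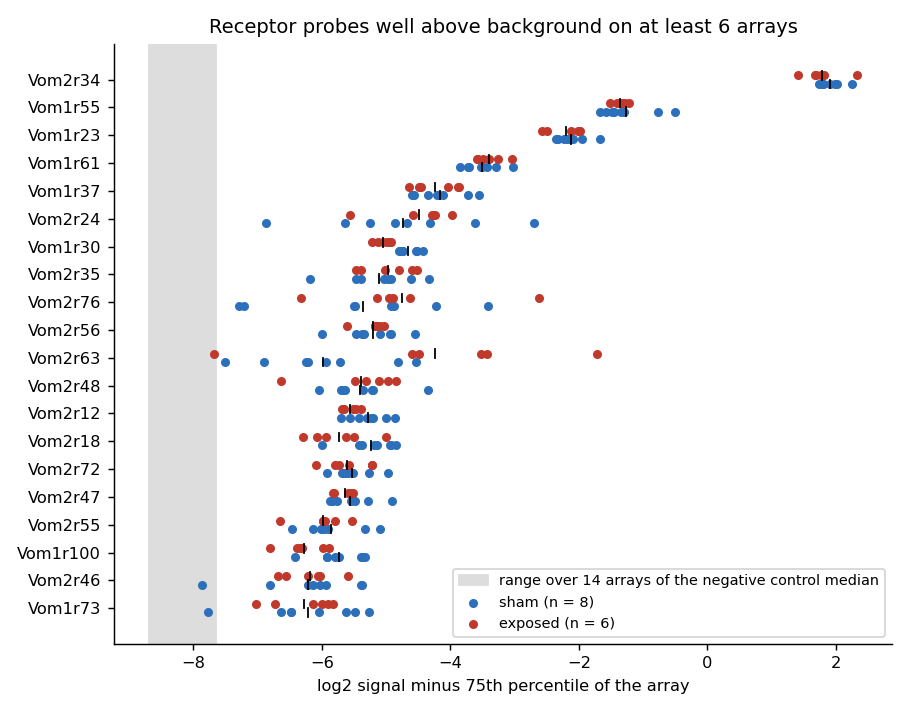
Log2 signal minus the array's 75th percentile for the 20 receptor probes well above background on at least 6 arrays, one point per animal, exposed (n = 6) and sham (n = 8), black ticks for the group means and the range of the negative control median in grey. Vom2r34 lies apart at 1.86, and Vom1r55, Vom1r23, Vom1r61 and Vom1r37 follow. By mean, Vom2r24 lies between Vom1r37 and Vom1r30. Vom2r24, Vom2r76 and Vom2r63 spread over several log2 units.

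Probes just inside and just outside the limit of 6 arrays differed little. Vom1r100 and Vom1r73, inside it, were above background on 8 arrays. Vom1r32 and the other Vom2r34 probe, outside it, were so on 4 arrays each, at -6.71 ± 0.61 and -6.08 ± 0.44 (SD, n = 14). Of the 22 probes seen on 1 to 5 arrays, 16 were seen on 1 array alone. Vom2r37 was the extreme among them: its 1 spot read 3083 units in sham 6 and 32.5 in sham 5, and 3.94 to 5.56 in the other 12 arrays. Vom1r104, seen on 2 arrays, had spots of 6.34 and 218 units in sham 4, and of 73.6 and 32.8 in exposed 4.

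Where a probe had 2 spots on the array, the spots give the technical error. For the 12 probes with signal on at least 6 arrays and 2 spots, the median difference between spots was 0.303 log2 units over 168 pairs, with a 95th percentile of 1.59. For the 64 others it was 0.153 over 896 pairs, with a 95th percentile of 1.38. Readings at the floor, where a spot carries its error estimate, are counted among the latter.

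Several probes existed for 23 receptor genes, 20 with 2 and 3 with 3. In 12 of these genes no probe was above background on any array, and in 16 none reached 6 arrays. All 23 are type 2 receptors, since each type 1 gene had 1 probe. Of these, 7 genes had a probe above background on at least 6 arrays, and in 0 of the 7 did every probe of the gene reach 6 arrays. In 5 of the 7 another probe was never above background.

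The bright Vom2r34 probe, at 1.86, was above background on all 14 arrays, and the gene's other probe, at -6.08, was so on 4. The Vom2r63 probe with signal was above background on 11 arrays and the gene's other 2 probes on none. For Vom2r18 the counts were 10 arrays and 0, for Vom2r48 13 and 0, for Vom2r56 13 and 2, and for Vom2r46 9 and 0. For Vom2r72 they were 11 arrays, with 0 for the other probes. No gap between probes is given in log2 units, since levels of different probes cannot be set against each other and the dimmer probe was mostly at the floor. Probe sequences were not used here, so which transcript each probe reads, and whether it reads a related receptor or another RNA, was not tested.

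**Figure D3:**
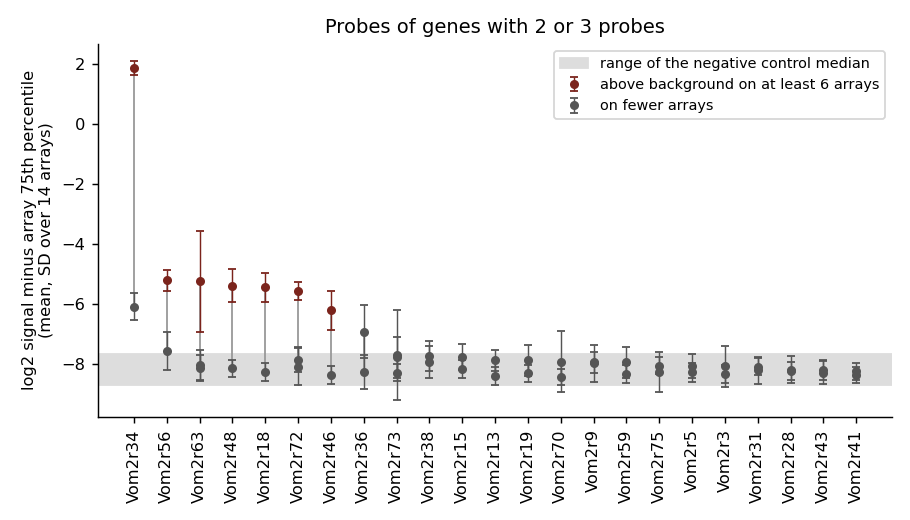
Mean level with SD over 14 arrays (log2 signal minus the array's 75th percentile) of each probe of the 23 receptor genes with 2 or 3 probes, with the range of the negative control median in grey. In each of the 7 genes with a probe above background on at least 6 arrays another probe did not reach 6, and in 5 of them another probe was never above background.

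In RefSeq gene order, 10 of the 20 genes with signal had a neighbouring member with signal. Of all 113 member genes 20 had signal, and how many of the other members had such a neighbour was not counted. Only members were taken as neighbours, so receptors without a probe may lie between them. The pairs were Vom2r34 and Vom2r35, Vom2r46 and Vom2r47, Vom2r55 and Vom2r56, Vom1r55 and Vom1r61, and Vom1r23 and Vom2r12. Neighbouring receptors of the same type are often close copies, and reads of a near-identical copy by 1 probe could not be told apart here. The pair of Vom1r23 and Vom2r12 joins receptors of different types. For 18 of the 20 genes no other RefSeq gene overlapped the receptor. Vom1r30 overlapped LOC120099261 and Vom2r24 overlapped Vom2r23, so those probes may read either gene.

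Of 12 genes of vomeronasal transduction, 9 were on the array with 11 probes, and Trpc2, the channel of these neurons, was not matched to a probe. Gnai2, a G protein subunit used in most tissues, lay at 4.16 ± 0.10, and B2m, the light chain of MHC class I molecules, at 4.82 ± 0.26 (SD, n = 14). Gng8, a G protein gamma subunit, lay at 0.08 ± 0.15, and the calcium-activated chloride channel Ano1 at 1.25 and -3.98 in its probes. Gnao1, the partner of type 2 receptors, was dim at -5.29 and -4.93, as was the phospholipase Plcb2 at -5.28. Omp, the marker protein of mature olfactory and vomeronasal neurons, lay at -8.07, and the receptor transport proteins Rtp1 and Rtp2 at -8.15 and -8.14, and these 3 were above background on 0 arrays.

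Of 11 listed markers of sensory neurons 9 were on the array, and Omp, Cnga2, Cnga4, Rtp1 and Rtp2 were never above background, with means from -8.19 to -7.97. Cnga2 and Cnga4 are channel subunits of olfactory neurons. Gnal at -3.58, Adcy3 at -3.12, Gng8 at 0.08 and Gng13 at -2.69 and -2.50 were above background on all 14 arrays, and these signalling genes are also used outside the nose. The summed linear level of the 9 genes was 1.49 to 1.84 times the 75th percentile in exposed and 1.50 to 1.85 in sham arrays. The groups thus covered the same range. Gng8 was the brightest of the 9, so the sum mostly follows it and says little of the genes never above background. None of the 10 probes passed the adjusted threshold of exposed against sham.

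Carrier proteins of pheromones and odours, small lipocalins that bind such ligands, were above background on at least 6 arrays for 6 of the 7 genes on the array. Obp3 lay at 4.75 ± 0.27, Mup5 at 3.62 and 2.83 and Mup4 at 3.07 and -6.00 in their probes. The odorant binding proteins Obp2a, Obp2b and Obp1f lay at -1.73, -5.36 and -7.40, and the iron-binding lipocalin Lcn2, a protein of innate defence, at -1.94. Of the 9 probes of these 7 genes, 5 were higher and 4 lower in exposed animals, and none passed the adjusted threshold. Mup genes are close copies of each other, so their probes may share signal. Whether the Obp probes share signal with other genes was not tested.

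Genes of organs far from skin give another reference for unexpected signal. All 16 listed genes were on the array, 5 of them reached 6 arrays and 3 were above background on all 14, while 6 were never above it. Among those with signal were the sperm protamines Prm1 at -3.07 and Prm2 at -4.51, the rod transducin Gnat1 at -3.80 with a further probe at -8.41, albumin (Alb) at -5.27 and the pancreatic carboxypeptidase Cpa1 at -5.22. A dim signal above background in a gene of another tissue was thus not peculiar to the receptors in these arrays.

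The scaled level at background is tied to the brightness of the array by construction, since the 75th percentile is subtracted from it and a near-constant floor then falls as the percentile rises. No test of the scaled relation is therefore given. As a description over the 14 arrays, the scaled median had a Pearson r with the log2 of the 75th percentile of -0.871 for the negative control spots, -0.895 for the never-detected receptors and -0.455 for the 20 with signal. Before scaling, the negative control median and the 75th percentile had a Pearson r of 0.501 (permutation test, two-sided, p = 0.0681) and a Spearman rho of 0.332 (permutation p = 0.247). Without exposed 3 and sham 6, the arrays farthest from the median brightness, this r was 0.241 (permutation p = 0.448), and within slide 3 it was 0.384 (exact permutation p = 0.446), while the other slides held too few arrays for a value. The unscaled r of the never-detected receptors was 0.486, given as a description.

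**Figure D4:**
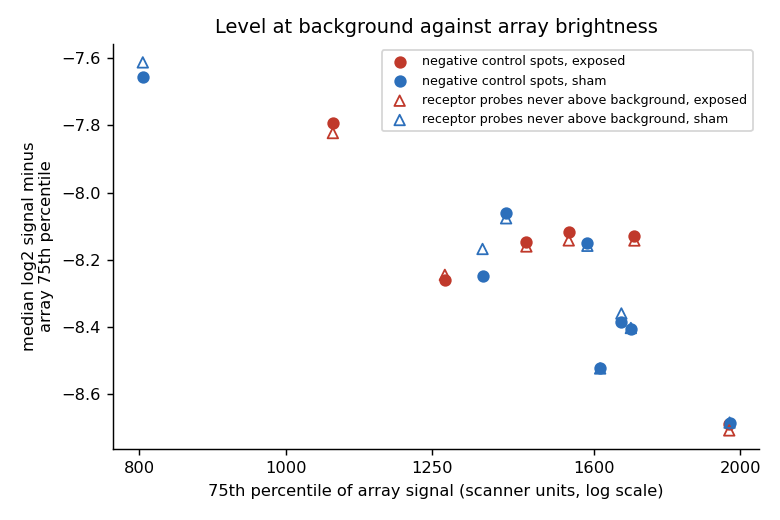
Median log2 signal minus the array's 75th percentile, against that percentile in scanner units on a log axis, one point per array, for negative control spots and for receptor probes never above background, by group. Both medians fall along the axis because the quantity on the horizontal axis is subtracted in the vertical one, and before scaling the r was 0.501 for the negative controls and 0.486 for the receptors.

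The same subtraction bears on which array holds the highest value of a receptor. Sham 6 had the lowest 75th percentile, 804.5, so scaling raised every probe on it relative to the other arrays. It held the highest scaled value of 9 of the 20 probes with signal and the highest unscaled value of 1 of 20. Sham 1 held the highest value of 5 of 20 probes on both scales.

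The comparison of exposed with sham animals asked whether chronic exposure moved any receptor signal in skin, and no receptor probe passed the threshold. At an adjusted p of 0.05 (limma across all 30367 probes, two-sided, Benjamini-Hochberg) 0 of 139 receptor probes were called, where the share of all probes called was 0%. At an unadjusted p of 0.05 the count was 8 of 139 (5.76%), beside 2.7% of all probes. In the higher direction it was 3 (2.16%) beside 0.81% of all probes, and in the lower direction 5 (3.60%) beside 1.89%. The smallest adjusted p of a receptor was 0.9998, and that of any probe 0.331. When the fit was limited to probes above background on at least 6 arrays, 5 of 20 receptor probes (25%) had an unadjusted p under 0.05, where 3.38% of all probes so limited did, and 0 passed the adjusted threshold. Members that passed this limit are not all members, and nothing is read from their share. In bulk skin, fewer cells of a type and less RNA per cell cannot be told apart in any such difference.

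The direction of the family as a whole is not settled by these arrays. Of 139 receptor probes 86 were higher and 53 lower in exposed animals, with a median difference of 0.04, while 46.1% of all probes were higher and their median difference was -0.01. When arrays were centred on the negative control spots instead, 39 were higher and 100 lower with a median of -0.03, and all probes shifted to a median of -0.09. With normexp background correction 51 were higher and 88 lower. A block for slide, which takes the group difference from slides 3 and 4 alone, left 32 of the 139 higher. Within slide 3 alone 115 were higher and 24 lower, but within slide 4 alone 15 and 124. Without exposed 3 alone 39 were higher and 100 lower, and without sham 2 alone 64 and 75. Of the 139 probes, 97 were never above background, so most of these signs belong to values without a measured level.

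**Figure D5:**
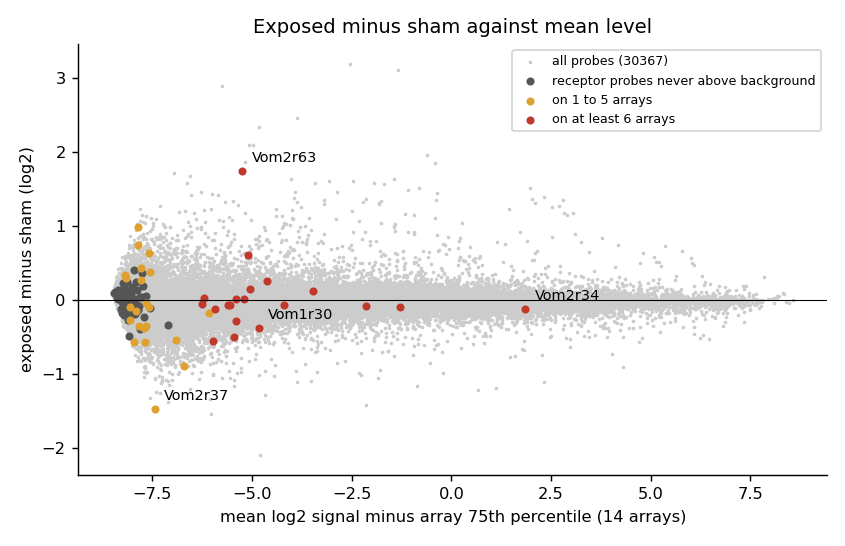
Exposed minus sham (log2) against the mean log2 signal minus the array's 75th percentile over 14 arrays, for all 30367 probes in grey and the receptor probes by how often they were above background. No receptor probe passed the adjusted threshold, and Vom2r63, at 1.75, is the highest of those seen on at least 6 arrays.

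Vom1r30 was the receptor whose groups did not overlap on the scaled log2 values. Its lowest, median and highest values were -5.22, -5.02 and -4.93 in exposed and -4.80, -4.75 and -4.43 in sham animals. On this scale every exposed animal lay below every sham animal, which held in the lower direction for 1 of 139 receptor probes and 0.0297% of all probes, and in the higher direction for 0 receptor probes and 0.00659% of all. The scaled difference was -0.38 ± 0.08 (SE; 95% interval -0.56 to -0.19; n = 6 and 8; limma adjusted p = 0.9998). The separation rests on the scaling: the unscaled signals overlapped, at 33.9 to 59.6 units in exposed and 28.8 to 85.7 in sham animals, with sham 6 the lowest of all, and the unscaled log2 difference was -0.37 ± 0.20 (SE). The difference was -0.37 ± 0.09 (SE) with arrays centred on their median, -0.34 ± 0.07 (SE) with quantile normalization and -0.18 with normexp. Slide 3 by itself gave -0.46, slide 4 gave -0.27, and a block for slide gave -0.40. RefSeq places LOC120099261 over the same gene, and which of them the probe reads was not tested.

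Vom1r100 and Vom2r18 lay lower in exposed animals, with overlap. Vom1r100 had -6.80, -6.32 and -5.89 as the lowest, median and highest exposed value and -6.42, -5.76 and -5.32 in sham, and it was above background in 2 of 6 exposed and 6 of 8 sham animals. Its difference was -0.55 ± 0.18 (SE, 95% interval -0.94 to -0.16), -0.32 after blocking on slide, -0.26 within slide 4 and -0.11 with normexp. Vom2r18 had -6.29, -5.78 and -5.00 in exposed and -5.99, -5.17 and -4.85 in sham, and was above background in 4 of 6 and 6 of 8. Its difference of -0.51 ± 0.21 (SE, 95% interval -0.96 to -0.05) became -0.19 after blocking on slide and -0.16 with normexp, and turned to 0.14 within slide 4. The other Vom2r18 probe was above background on 0 arrays. Vom2r12, at -5.58 as the exposed and -5.26 as the sham median, differed by -0.28 ± 0.12 (SE, 95% interval -0.55 to -0.02), by -0.63 within slide 4 and by -0.09 with normexp. The limma adjusted p of each of these 3 was 0.9998.

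Among the 20 probes with signal, Vom2r63 had the widest difference in the other direction, with a wide spread within the exposed group. The exposed values were -7.68 at the lowest, -4.00 at the median and -1.72 at the highest, and the sham values -7.51, -6.08 and -4.53. The highest 3 values were exposed 4, exposed 6 and exposed 1, while exposed 3 was the lowest of all 14, so the groups overlapped. It was above background in 5 of 6 exposed and 6 of 8 sham animals. The difference was 1.75 ± 0.74 (SE, 95% interval 0.17 to 3.33; limma adjusted p = 0.9998), and 0.89 with normexp. It was 2.14 after blocking on slide, 1.94 within slide 3 and 2.55 within slide 4, which holds 1 exposed array. The gene's other probes were never above background.

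Other receptors among the smallest unadjusted p in each direction were well above background on no array of a whole group, so no fold is given. Vom1r32, Vom2r50 and Vom2r26 are among the 8 probes counted above, and Vom1r67, with an unadjusted limma p of 0.0684, is not. Vom1r32 was above background in 0 of 6 exposed and 4 of 8 sham animals, with means of -7.22 ± 0.40 (SD, n = 6) and -6.32 ± 0.42 (SD, n = 8). The sham mean lay below the lowest level that counted as well above background on the exposed arrays, which was -6.12 on average. The exposed signals of Vom1r32, 6.7 to 18.3 units, each lay above the 99th percentile of the negative controls of the same array. Vom2r50, Vom2r26 and Vom1r67 were above background in 1 exposed animal each and in 0 sham animals, with exposed means of -7.29, -7.45 and -7.21 and sham means of -8.29, -8.19 and -7.85. The limma adjusted p of all 4 was 0.9998.

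The brightest receptors showed little difference between the groups, with intervals that limit it. Vom2r34 differed by -0.13 ± 0.13 (SE, 95% interval -0.40 to 0.15), Vom1r55 by -0.09 (-0.45 to 0.27), Vom1r23 by -0.08 (-0.36 to 0.20), Vom1r61 by 0.12 (-0.17 to 0.40) and Vom1r37 by -0.07 (-0.47 to 0.33). These intervals lie within a change of 2-fold, which is 1 log2 unit, in either direction. They do not show that the levels were equal. Vom2r34 was -0.57 within slide 4, which holds 1 exposed array, and -0.03 within slide 3, and -0.20 when arrays were centred on the negative control spots. The authors' deposited table held 4 receptor probes, Vom2r34, Vom1r55, Vom1r23 and Vom1r61, and limma on those deposited log2 values gave differences of -0.12, -0.08, -0.08 and 0.12.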

How the data were processed

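Per the file headers, the deposited spot intensity values come from Agilent Feature Extraction 10.7.3.1 with its background subtraction, on design 028279 (build rn4). Per the labels' protocols, total RNA of skin biopsies was amplified from low input with Cy3. A table of log2 values deposited by the authors covers 15168 probes, with a normalization not given in the sources used here.

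Of 62976 spots per array, 4259 control spots and spots with outlier flags were left out. The processed intensity was put on the log2 scale, the array's 75th percentile was subtracted, and spots of a probe were averaged. Probes were named through accessions in RefSeq (GRCr8), which matched 17998 of 30367 (59.3%). The groups were tested against each other in limma 3.58.1 (R 4.3.3), by lmFit and then eBayes with no term but group. Tests were two-sided, used Benjamini-Hochberg adjustment over all probes and had no filter on dim probes. The script was tested on simulated data. Correlations over arrays used 100000 permutations, or exact ones within a slide. The number of arrays limits the precision.

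The 4 slides were scanned separately and held 2 sham arrays (slide 1), 2 exposed (slide 2), 3 of each (slide 3), and 1 exposed and 3 sham (slide 4). Slides 1 and 2 each held a single group, so every difference after blocking on slide rests on slides 3 and 4. In the fit with group alone, slide and group cannot be fully told apart. Animals were numbered only to name them.

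Receptors named were those above background on at least 7 arrays, the 5 highest and 5 lowest means, the 4 smallest p in each direction, those beside the limit of 6 arrays and the 3 widest gaps between probes. Named besides were the transduction and carrier lists and 5 skin genes. Vom2r37 and Vom1r104, and the genes given from other lists, were singled out after their values were seen or serve as examples. The members and lists were chosen with earlier results of these data known. Alternatives covered scaling, background correction, dim probes, outlier spots, slide, the detection rule and leaving out each array. Normexp used the median spot signal with an offset of 50, which by construction shrinks differences of dim spots.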

Additional observations from a re-analysis of the deposited data

Results flagged for a closer look

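In 50 groups of values looked at, a single array lay far from the rest of its group in 3, where chance gives about 1 in 20 groups. Vom2r56 in exposed 4 was the lowest exposed value at -5.61, with the others from -5.18 to -5.04. Vom2r48 in exposed 5 was the lowest exposed value at -6.64, with the others from -5.48 to -4.84. Vom2r37 in sham 6 was the highest sham value at 1.94, with the others from -8.77 to -5.61, and this probe has 1 spot.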

How the results depend on the processing

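No receptor probe passed the adjusted threshold under any alternative run. The count at an unadjusted p of 0.05, 8 in the report, was 5 without scaling, 1 with normexp, 5 with probes above background on at least 6 arrays only, 5 after blocking on slide, 4 within slide 3 and 0 with the authors' deposited values, which hold 4 receptor probes. Leaving out each array gave 5 to 9, with 5 without exposed 1. Within slide 4, Vom2r18 turned to 0.140, and the cause was not tested.

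The number of receptor probes with signal, 20 in the report, was 47 with the flag for a positive and significant signal, 47 and 44 above the 95th and 99th percentile of the negative controls, 42 on at least 1 array, 7 on all 14 arrays and 13 over genes with 1 probe. It was 16 when every spot had to be above background, a rule chosen after seeing the data. Leaving out each array gave 20 each time. The receptor median minus the negative controls, 0.0886, was 0.151 with normexp and 0.0840 to 0.0908 with each array left out. The r of brightness with the scaled negative control level, which the scaling builds in, was -0.871 over all arrays, -0.754 within slide 3 and -0.995 with normexp. Of the receptors named, Vom2r34 ranged from -0.237 without exposed 3 to -0.0545 without exposed 6, and Vom2r63 from 1.24 to 2.44. No paired analysis was possible because the labels give no shared replicate numbers and do not say which animals shared a cage. Most receptor readings lie at the floor, so differences there are not detectable, which does not show that they are absent.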
